A study of Rattus norvegicus with 24 samples.

Results

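The aryl hydrocarbon receptor (AhR) pathway was read in rat liver through 8 genes: Ahr, the dioxin receptor, Arnt, its DNA-binding partner, and the 6 target genes Cyp1a1, Cyp1a2, Cyp1b1, Tiparp, Aldh3a1 and Xdh. The genes were chosen by symbol, through the Entrez identifiers of the deposited count tables, with earlier results of these data known. Of the 8, 7 were found among the 15319 genes of both tables: Ahr (Entrez 25690), Arnt (25242), Cyp1a1 (24296), Cyp1a2 (24297), Cyp1b1 (25426), Aldh3a1 (25375) and Xdh (497811). Tiparp (310467), which encodes an ADP-ribosyltransferase that represses AhR, was not analysed here. Ahr, Arnt, Cyp1a1, Cyp1a2 and Xdh had enough counts for a test across all genes, and Cyp1b1 and Aldh3a1, with 3 counts each over 24 libraries, did not.

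Livers came from 24 adolescent Sprague-Dawley rats, an outbred laboratory stock, with 1 library per animal and 6 animals in each of 4 groups. PCB 52 females and PCB 52 males breathed PCB 52 from a nose-only system for 4 hours a day on 28 days, in air passed over coated beads at 12 L/min, while sham females and sham males were the sham-exposed animals of the same sexes. At the first exposure females were 42 and males 39 days old. The sources used here do not give the air concentration, the dose each animal took up or the time of day of tissue collection. The study asks how the liver's gene expression differs after inhalation of PCB 52 in each sex.

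AhR is a transcription factor that waits in the cytosol, bound to HSP90 chaperones, until a ligand releases it. The ligand-bound receptor enters the nucleus, pairs with ARNT and binds dioxin response elements, DNA sites with the core GCGTG. In liver, induction of Cyp1a1 and Cyp1a2 is the classic readout of dioxin and of flat, dioxin-like PCBs. PCB 52 carries ortho chlorines and is classed among the PCBs that are not dioxin-like.

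The 300 bases around the gene start, from 250 before to 50 after it, are shown for 3 of the genes, Arnt, Cyp1a2 and Cyp1b1. Cyp1b1 was close to 0 in every library. Arnt and Cyp1a2 were taken for their correlation between animals, given below, which did not pass in every setting. The windows are RefSeq sequences of the GRCr8 assembly, which is not the authors' build, at chr2:185686453-185686752 (plus strand) for Arnt, chr8:66978100-66978399 (minus strand) for Cyp1a2 and chr6:21094315-21094614 (plus strand) for Cyp1b1. Each is written in the gene's direction, and capitals mark GCGTG, or CACGC where the core lies on the other strand.
Arnt: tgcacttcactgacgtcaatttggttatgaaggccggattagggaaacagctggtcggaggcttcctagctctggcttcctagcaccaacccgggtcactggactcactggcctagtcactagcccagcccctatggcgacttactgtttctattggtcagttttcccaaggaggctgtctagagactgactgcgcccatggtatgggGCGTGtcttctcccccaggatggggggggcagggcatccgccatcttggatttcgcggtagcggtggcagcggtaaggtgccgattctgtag
Cyp1a2: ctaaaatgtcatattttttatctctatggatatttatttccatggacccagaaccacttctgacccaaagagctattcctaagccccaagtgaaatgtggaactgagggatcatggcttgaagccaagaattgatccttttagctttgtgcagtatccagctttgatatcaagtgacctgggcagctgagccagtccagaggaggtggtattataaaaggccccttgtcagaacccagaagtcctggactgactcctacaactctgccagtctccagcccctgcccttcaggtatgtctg
Cyp1b1: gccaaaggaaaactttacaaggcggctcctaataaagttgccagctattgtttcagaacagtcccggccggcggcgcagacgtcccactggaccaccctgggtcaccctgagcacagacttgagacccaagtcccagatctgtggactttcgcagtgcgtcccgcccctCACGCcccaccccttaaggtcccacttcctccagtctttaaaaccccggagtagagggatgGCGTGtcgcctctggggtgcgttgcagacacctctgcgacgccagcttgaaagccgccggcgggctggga
The Arnt window held 1 core, which began 42 bases before the start. The Cyp1b1 window held 2, at 81 and 20 bases before the start, and 1 of these was part of the longer TNGCGTG. The Cyp1a2 window held none. Among the 6 genes with a window, Tiparp had 1 core, and Ahr and Xdh had none, and Cyp1a1 and Aldh3a1 had no window in the table used. On both strands, GCGTG occurred in 29.7% and TNGCGTG in 4.891% of 33469 windows of the same length. A match describes these letters and is not a known site. Bases outside a window were not searched, so a window without a match does not show that the gene lacks sites.

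Libraries held 6994832 to 9185511 counts, and levels are given as counts per 1e+06 library counts (CPM) after TMM scaling, an adjustment for library composition. The 5 hepatocyte markers (Alb, Apoa1, Ttr, Serpina1 and Tf) summed to 132473 to 191306 CPM in all 24 libraries. Animals 13 to 16, all exposed, stood apart from most other libraries on the leading axis of variation within groups, a principal component of log2 CPM after the group means were removed, which held 13.23% of that variance. Their scores were 17.15, 12.91, 21.82 and 19.43, against −17.43 to 13.44 in the other 20 libraries. Cyp1a1 (r = −0.51) and Cyp1a2 (r = −0.63) ran against this axis over the 24 libraries, Arnt (−0.25), Ahr (−0.14) and Xdh (0.16) more weakly. Fold changes of the 5 testable genes and of the pathway genes named are therefore given with and without animals 13 to 16. All 4 lay below their group means for Cyp1a1 and Cyp1a2, so leaving them out raises the exposure fold changes of these genes by construction.

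None of the 5 testable genes passed the test for exposure in either sex, where 0% of all genes tested passed in females and 0% in males. Ahr, the receptor, had 75.0, 108 and 140 CPM as the lowest, median and highest value in PCB 52 females, against 87.01, 123 and 141 CPM in sham females. In males these values were 52.4, 63.0 and 104.7 CPM with PCB 52 and 34.8, 74.2 and 112 CPM in sham animals. The ranges overlapped in both sexes, and the widest was that of sham males, where the highest library stood 3.23-fold over the lowest. The log2 fold change, PCB 52 over sham, was −0.13 ± 0.13 (SE) in females (adjusted p = 0.761, edgeR's quasi-likelihood test) and, in males, −0.08 ± 0.27 (adjusted p = 0.962). In males the sign turned only without animal 1, the highest sham male (0.096). The log2 fold change was −0.25 without animal 21, the highest PCB 52 male.

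Arnt is needed by AhR to bind DNA and also serves the hypoxia factors. Its highest library stood 1.71-fold over its lowest in sham females, and 1.29- to 1.38-fold in the other groups. Arnt had 43.9, 50.6 and 56.7 CPM as the lowest, median and highest value in PCB 52 females, against 32.7, 49.1 and 56.0 CPM in sham females. PCB 52 males had 36.9, 43.5 and 50.8 CPM, against 32.9, 38.3 and 45.4 CPM in sham males. Above the sham mean lay 5 of 6 PCB 52 females and 4 of 6 PCB 52 males, with overlapping ranges. In log2 terms the fold change was 0.11 ± 0.11 for females (adjusted p = 0.762) and 0.16 ± 0.11 for males (adjusted p = 0.834).

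Cyp1a1, the hydrocarbon-oxidising enzyme that responds most sharply to AhR ligands in many tissues, was thinly covered, with 9 to 79 counts in a library. Its lowest, median and highest values were 1.54, 2.78 and 8.24 CPM in PCB 52 females, against 2.58, 3.95 and 6.48 CPM in sham females. They were 1.17, 3.45 and 5.40 CPM in PCB 52 males, against 1.93, 3.68 and 6.73 CPM in sham males. Animal 20, a PCB 52 female, had the highest level of all 24 libraries, and the 3 lowest were animals 13, 15 and 16. Of the exposed animals 2 of 6 PCB 52 females and 1 of 6 PCB 52 males lay above the sham mean. Exposed over sham, this gave a log2 fold change of −0.15 ± 0.36 for females (adjusted p = 0.907) and −0.31 ± 0.37 for males (adjusted p = 0.903). Without animals 13 to 16 it was 0.12 in females and 0.07 in males, and in females it ran from −0.53 without animal 20 to 0.012 without animal 16.

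Cyp1a2, a caffeine- and arylamine-oxidising enzyme that hepatocytes carry without induction, had from 6892 to 16553 counts in a library. PCB 52 females had 1324.7, 1449 and 1752 CPM as the lowest, median and highest value, against 1424, 1723 and 1887 CPM in sham females. PCB 52 males had 906, 1205 and 1862 CPM, against 1017, 1367 and 1538 CPM in sham males. The highest and the lowest PCB 52 male, animals 17 and 15, lay outside the range of the sham males on either side. Cyp1a2 had a log2 fold change of −0.16 ± 0.10 for females (adjusted p = 0.591) and −0.05 ± 0.16 for males (adjusted p = 0.960). With animals 13 to 16 left out it was −0.10 in females and 0.12 in males, and in males single animals turned it, from −0.19 without animal 17 to 0.030 without animal 15.

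Xdh, xanthine oxidoreductase, which makes uric acid and which AhR ligands raise in mouse liver, had 129.7, 144 and 159 CPM as the lowest, median and highest value in PCB 52 females, against 109, 139 and 159 CPM in sham females. PCB 52 males had 146, 179 and 195 CPM, against 137, 168 and 204 CPM in sham males. Above the sham mean lay 5 of 6 PCB 52 females and 4 of 6 PCB 52 males. Its log2 fold change was 0.08 ± 0.09 for females (adjusted p = 0.775) and 0.07 ± 0.09 for males (adjusted p = 0.911). Without animals 13 to 16 the log2 fold changes for females were −0.13 for Ahr, 0.12 for Arnt and 0.12 for Xdh, and those for males were −0.012, 0.26 and 0.037 for the same genes (adjusted p = 0.903 to 0.999 over the 6 values).

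Cyp1b1, a P450 found mainly outside the liver, and Aldh3a1, an aldehyde dehydrogenase that dioxin raises from almost nothing in rat liver, had almost no counts. Cyp1b1 had 1 count over the 6 PCB 52 females and 1 over the 6 sham females, and 0 counts over the PCB 52 males against 1 over the sham males. Aldh3a1 had 0 counts in PCB 52 females and 0 in sham females, and 1 count over the PCB 52 males against 2 over the sham males. A count of 0 over the 6 libraries of a group still allows a level of up to 0.0610 CPM in PCB 52 females, 0.0593 CPM in sham females, 0.0633 CPM in PCB 52 males and 0.0641 CPM in sham males, for counting error alone. So few counts allow no comparison of PCB 52 with sham animals.

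**Figure D1:**
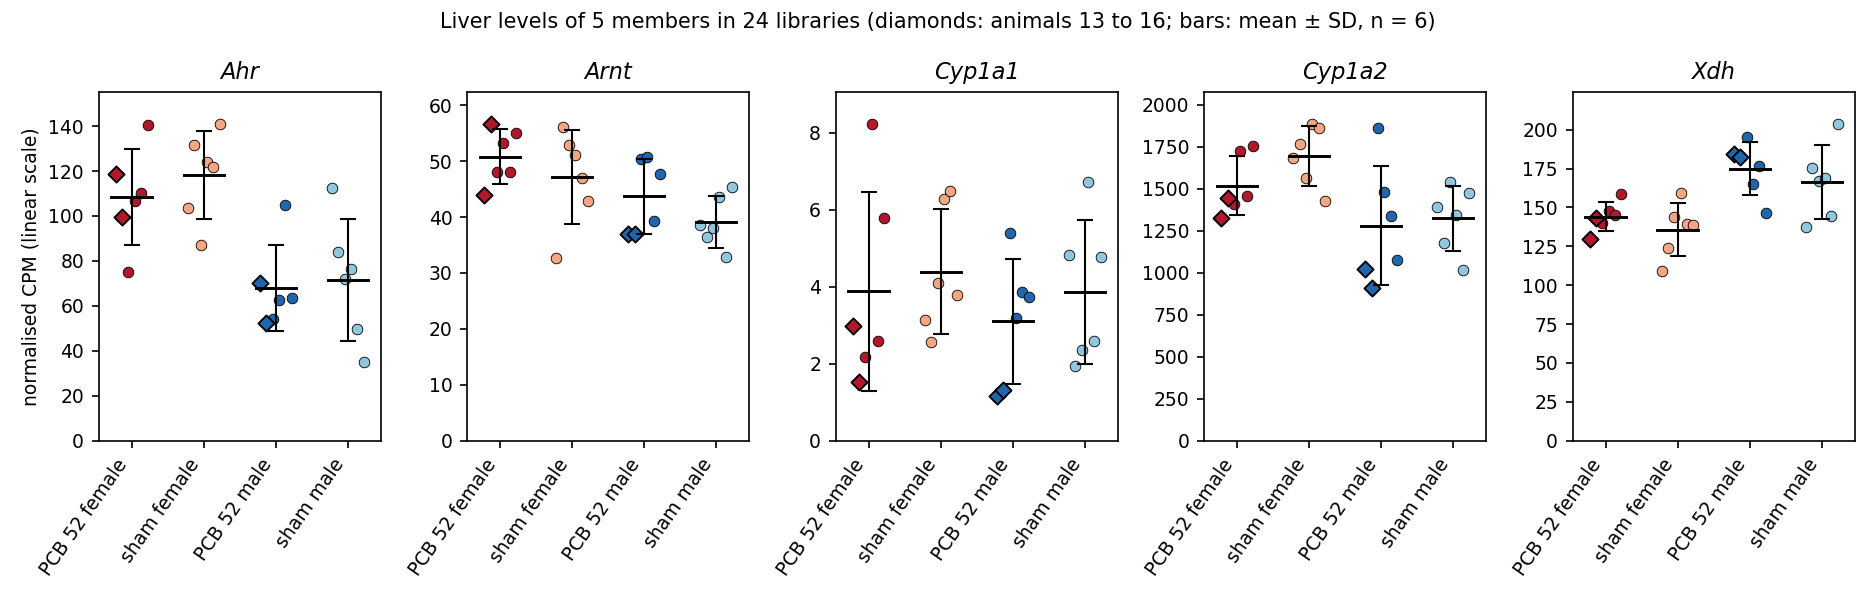
Normalised CPM on a linear scale for Ahr, Arnt, Cyp1a1, Cyp1a2 and Xdh in the 24 libraries, with the mean and SD of each group of 6; diamonds are animals 13 to 16. PCB 52 and sham animals of a sex overlapped in every panel, Ahr lay higher and Xdh lower in females, and animal 20 stood at 8.24 CPM of Cyp1a1.

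The mean of the female and the male response used all 12 exposed and 12 sham animals. Its 95% intervals were narrower than in either sex alone for Arnt, Cyp1a1, Cyp1a2 and Xdh. For Ahr the interval in females alone, from 0.754-fold to 1.11-fold, was narrower than that of the mean. The mean fold change was 0.854 for Cyp1a1 with a 95% interval from 0.570 to 1.28, and 0.930 for Cyp1a2 with an interval from 0.814 to 1.06. It was 0.933 for Ahr (0.749 to 1.16), 1.098 for Arnt (0.980 to 1.23) and 1.06 for Xdh (0.963 to 1.16). The smallest adjusted p, 0.425, was that of Arnt. With all 24 libraries the highest upper bound of the 5 intervals was 1.28-fold, for Cyp1a1, and in single sexes it was 1.54-fold, for Cyp1a1 in females. These bounds rest on animals 13 to 16: with those left out, the fold change of Cyp1a1 was 1.07 with an interval from 0.730 to 1.56, and its upper bound in females was 1.88. The other mean fold changes were then 1.01 for Cyp1a2 (0.884 to 1.15), 0.951 for Ahr (0.723 to 1.25), 1.14 for Arnt (1.01 to 1.29) and 1.06 for Xdh (0.950 to 1.18). The smallest adjusted p was again that of Arnt, at 0.570.

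Over all genes, edgeR called 0 of 10251 for exposure in females, 0 of 10180 in males, 0% for the mean response (0 of 10535) and 0% for the difference between the responses of the sexes (0 of 10535). At an unadjusted p under 0.05 there were 1021, 585, 1625 and 239 genes in these comparisons. DESeq2 called 28, 1, 105 and 0 genes, none of the 5 among them, and limma-voom called 0 in each. For the 5 genes, the female minus the male response ran from −0.11 ± 0.19 for Cyp1a2 to 0.16 ± 0.57 for Cyp1a1 on the log2 scale, with an adjusted p of 0.99997 for each. The 95% interval for Cyp1a1 was wide, from −1.01 to 1.32. With animals 13 to 16 left out, these differences ran from −0.21 for Cyp1a2 to 0.09 for Xdh, with 0.060 for Cyp1a1, −0.11 for Ahr and −0.14 for Arnt.

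**Figure D2:**
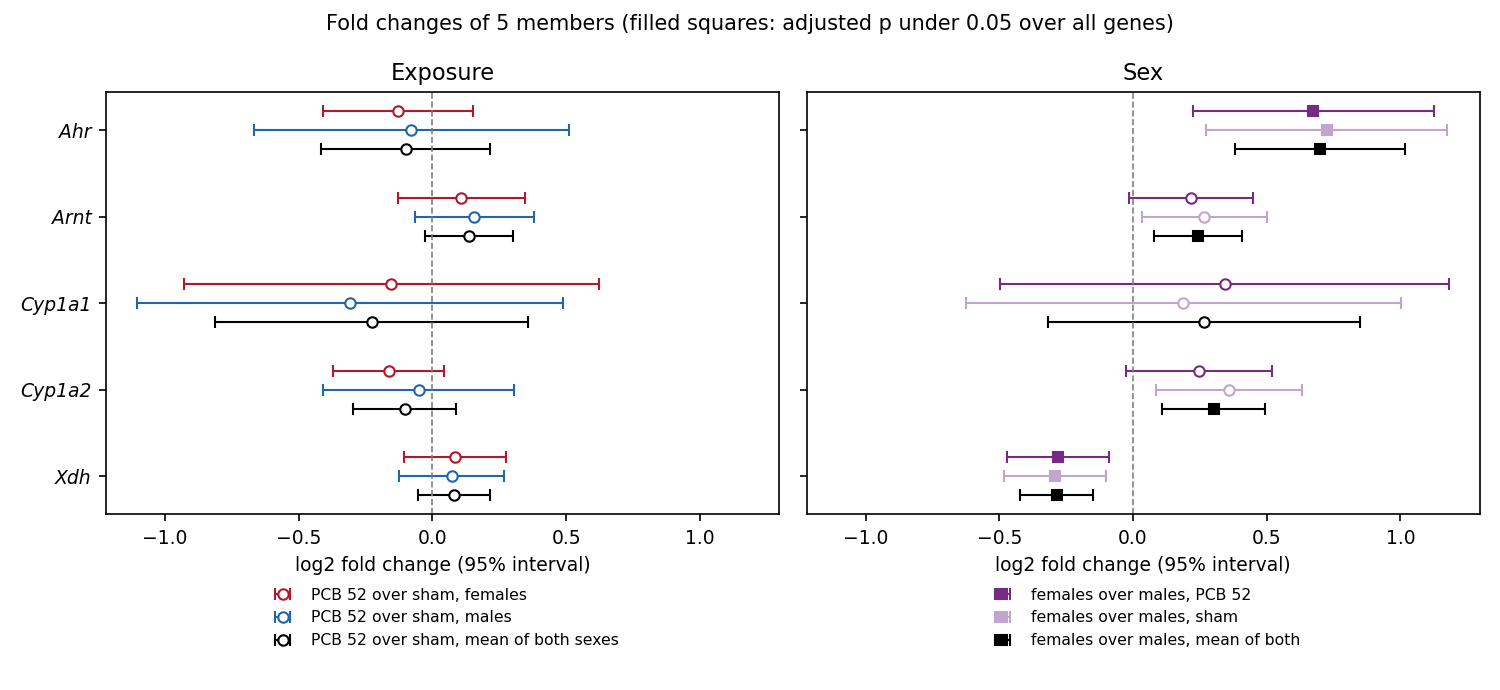
Log2 fold changes with 95% intervals for the 5 genes; the left panel shows PCB 52 over sham in females, in males and as the mean of both, and the right panel shows females over males among PCB 52 animals, among sham animals and as the mean of both. With all 24 libraries the intervals for exposure crossed 0, while Ahr lay above 0 and Xdh below 0 in each sex contrast.

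In each comparison of the sexes 2 of the 5 genes passed, where 19.9% of 10535 genes passed among PCB 52 animals and 20.3% among sham animals. Ahr was higher in females and Xdh was lower in females, in PCB 52 and in sham animals alike. Ahr averaged 108 ± 21.5 CPM in PCB 52 females and 67.9 ± 19.2 CPM in PCB 52 males (SD, n = 6 each), and 118 ± 19.7 CPM in sham females and 71.5 ± 27.1 CPM in sham males. In both exposure groups 6 of 6 females lay above the male mean and 4 of 6 above the highest male. The log2 fold change, female over male, was 0.67 ± 0.22 among PCB 52 animals (adjusted p = 0.0298, edgeR) and 0.72 ± 0.22 among sham animals (adjusted p = 0.0187).

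Xdh averaged 144 ± 9.48 CPM in PCB 52 females and 175 ± 17.1 CPM in PCB 52 males, and 136 ± 17.3 CPM in sham females and 166 ± 23.7 CPM in sham males. In both exposure groups 0 of 6 females lay above the male mean. The log2 fold change was −0.28 ± 0.09 among PCB 52 animals (adjusted p = 0.0314) and −0.29 ± 0.09 among sham animals (adjusted p = 0.0245).

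Cyp1a2 and Arnt had higher means in females in both exposure groups, and neither passed by edgeR in either group. By other methods both passed among sham animals, Cyp1a2 with DESeq2 (adjusted p = 0.0485) and limma-voom (adjusted p = 0.0239) and Arnt with limma-voom (adjusted p = 0.0138). Cyp1a2 averaged 1518 ± 177 CPM in PCB 52 females and 1279 ± 355 CPM in PCB 52 males (log2 fold change 0.25 ± 0.13, adjusted p = 0.214). Its means were 1696 ± 178 CPM in sham females and 1323 ± 194 CPM in sham males (0.36 ± 0.13, adjusted p = 0.0564). Of the sham females 5 of 6 lay above the highest sham male, and of the PCB 52 females 0 of 6 lay above the highest PCB 52 male, animal 17. Arnt averaged 50.8 ± 4.93 CPM in PCB 52 females and 43.7 ± 6.67 CPM in PCB 52 males (0.22 ± 0.11, adjusted p = 0.197). Sham females had 47.1 ± 8.41 CPM and sham males 39.1 ± 4.61 CPM (0.27 ± 0.11, adjusted p = 0.103). Cyp1a1 averaged 3.88 ± 2.59 CPM in PCB 52 females and 3.11 ± 1.62 CPM in PCB 52 males, and 4.39 ± 1.63 CPM in sham females and 3.87 ± 1.88 CPM in sham males. Its differences, 0.34 ± 0.41 (adjusted p = 0.626) and 0.19 ± 0.39 (adjusted p = 0.811), were smaller than the spread between animals.

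With both exposure groups averaged, a contrast chosen after the separate values had been seen, 4 of the 5 genes passed, where 32.3% of all genes did. The female level was 1.62-fold the male level for Ahr (95% interval 1.30 to 2.02, adjusted p = 9.5e-04), 1.23-fold for Cyp1a2 (1.08 to 1.41, adjusted p = 0.0132) and 1.18-fold for Arnt (1.06 to 1.33, adjusted p = 0.0201). For Xdh it was 0.820-fold (0.747 to 0.901, adjusted p = 0.00104). Cyp1a1 had 1.20-fold (0.802 to 1.80, adjusted p = 0.520). Whether the 5 genes passed more often than other genes was not tested.

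In order of mean level, Ahr, Cyp1a1 and Cyp1a2 ran from sham females through PCB 52 females and sham males to PCB 52 males, and Arnt from PCB 52 females through sham females and PCB 52 males to sham males. Xdh ran from PCB 52 males through sham males and PCB 52 females to sham females. For each of these 5 genes the ranges of neighbouring groups overlapped.

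Single libraries decided some of these calls. The Ahr difference among PCB 52 animals kept its direction but missed the threshold without any 1 of the animals 14, 15, 17, 19, 23 and 24 (adjusted p = 0.0542 to 0.0767). The Xdh difference missed it without any 1 of 8 PCB 52 animals, 13 to 18, 21 and 22 (0.0506 to 0.0798), and among sham animals without 2, 3, 4 or 11 (0.0537 to 0.0900). Cyp1a2 passed among sham animals without 5, 12, 13, 15 or 17 (0.0238 to 0.0498) and among PCB 52 animals without 17 (0.0230), and Arnt passed among sham animals without animal 2 (0.0144). Cyp1a1 among PCB 52 animals had a log2 fold change of −0.035 without animal 20. Leaving out animals 13 to 16 gave PCB 52 differences of 0.61 for Ahr (adjusted p = 0.194), −0.20 for Xdh (adjusted p = 0.280), 0.14 for Cyp1a2 (adjusted p = 0.578), 0.12 for Arnt (adjusted p = 0.615) and 0.25 for Cyp1a1 (adjusted p = 0.767), so that none of the 5 passed, where 15.6% of 10618 genes did. Among sham animals Cyp1a2 then passed (0.36, adjusted p = 0.0267), beside Ahr (0.72, adjusted p = 0.0370) and Xdh (−0.29, adjusted p = 0.0265). The averaged contrast, where 29.5% of genes passed, then gave a call for Ahr (0.66, adjusted p = 0.0117), Cyp1a2 (0.25, adjusted p = 0.0398) and Xdh (−0.25, adjusted p = 0.0129), but Arnt no longer passed (0.19, adjusted p = 0.0866).

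Some other measures moved with sex as well, in a contrast where 32.3% of all genes were called, 16.4% as higher in females. As lower in females, 1671 of 10535 genes were called. Of the stellate cell and fibroblast markers 0 of 9 were called, and of the lymphocyte markers 0 of 1. Of the cholangiocyte markers 1 of 2 was called lower in females, and of the erythroid markers 1 of 3 higher. Females came from 1 count table and males from the other, began exposure at different ages and carried even and odd animal numbers, and these cannot be told apart from sex. Of the 5 hepatocyte markers 3 were called lower in females and 0 higher: Apoa1 (−0.88 ± 0.12 on the log2 scale), Serpina1 (−0.64 ± 0.06) and Ttr (−0.27 ± 0.08). Their sum, most of it Alb, ran from 139715 to 184465 CPM in PCB 52 females and from 147693 to 176406 CPM in PCB 52 males, and from 132473 to 191306 CPM in sham females and from 144411 to 168511 CPM in sham males. Periportal hepatocyte markers, from the zone around the portal vein, summed to 8761 to 14155 CPM in PCB 52 females and 10511 to 14290 CPM in PCB 52 males, and to 10017 to 13969 CPM in sham females and 11485 to 14317 CPM in sham males, with 4 of 8 called lower, 2 called higher and none at 0. Of 7 Kupffer cell and macrophage markers 6 were higher in females in the averaged contrast and Marco was not, with summed levels of 469 to 609 CPM in PCB 52 females and 430 to 507 CPM in PCB 52 males, and of 525 to 691 CPM in sham females and 413 to 498 CPM in sham males, and no marker was at 0 in any group. Of 5 sinusoidal endothelium markers 2 passed as higher in females, and the sums were 365 to 474 CPM in PCB 52 females and 288.3 to 395 CPM in PCB 52 males, and 293 to 470 CPM in sham females and 300.2 to 381 CPM in sham males. Pericentral hepatocyte markers, from the zone where Cyp1a2 is known to be strongest, summed to 6135 to 7443 CPM in PCB 52 females and 4645 to 6282 CPM in PCB 52 males, and to 5627 to 7556 CPM in sham females and 5058 to 6325 CPM in sham males, with 3 of 8 called higher, 2 called lower and none at 0. Of 11 clock genes 5 were called lower in females and 0 higher. With animals 13 to 16 left out, 3 hepatocyte and 5 clock genes were still called lower in females and 0 higher. Of the periportal genes 4 were then called lower and 2 higher, and of the pericentral genes 2 lower and 2 higher. Of the Kupffer cell genes 5 were called higher and 0 lower, and of the endothelial genes 0 in either direction. Of 9 stellate cell and fibroblast markers 1 was then called lower and 0 higher. The part of these markers in the sex differences of Ahr, Cyp1a2, Arnt and Xdh was not tested, and in bulk tissue fewer cells of a type and less RNA per cell cannot be told apart.

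Between animals of 1 group, Cyp1a1 and Ahr varied more than most genes. The biological coefficient of variation was 45.0% for Cyp1a1 and 25.8% for Ahr, against 21.9% and 14.3% for genes of the same abundance, and it ranked above 98.3% and 89.1% of 10535 genes. Cyp1a2 had 16.8%, Arnt 13.6% and Xdh 12.1%, against 15.3%, 14.2% and 14.4% for genes of the same abundance and 14.2% for the median gene. By the ratio to genes of the same abundance, Cyp1a2 ranked above 79.0%, Arnt above 64.1% and Xdh above 44.2% of genes. Cyp1a1 and Ahr ranked above 97.4% and 96.1% by that ratio.

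Cyp1a1 and Cyp1a2, neighbouring genes with a shared upstream region in mammals, went up and down together within groups. Over the 24 libraries, after the group means were removed, r was 0.640 (permutation p = 0.0023, adjusted over 10 pairs p = 0.023) and rho was 0.625 (permutation p = 0.00404, adjusted p = 0.0404). The correlation was 0.598 without the 2 libraries farthest from the median of Cyp1a1. It was 0.664 in the 12 females (permutation test, adjusted p = 0.180) and 0.667 in the 12 males (adjusted p = 0.112), and passed in neither sex alone. Without animals 13 to 16, all 4 of which lay below their group means for both genes, r was 0.484 (permutation p = 0.0252, adjusted p = 0.142).

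Arnt and Cyp1a2 gave r = 0.550 (permutation p = 0.00934, adjusted p = 0.0467) and rho = 0.574 (permutation p = 0.0117, adjusted p = 0.0586), and r was 0.673 without the 2 farthest libraries. It was 0.369 in females (permutation test, adjusted p = 0.516) and 0.719 in males (adjusted p = 0.112). Without animals 13 to 16 it was 0.419 (permutation p = 0.0711, adjusted p = 0.142). Arnt and Cyp1a1 gave r = 0.448 (permutation p = 0.0291, adjusted p = 0.0968) and rho = 0.384 (permutation p = 0.0818, adjusted p = 0.273). No correlation of Ahr with the other 4 genes passed, and r ran from −0.24 with Xdh to 0.15 with Cyp1a1 (permutation tests, adjusted p = 0.495 to 0.696).

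**Figure D3:**
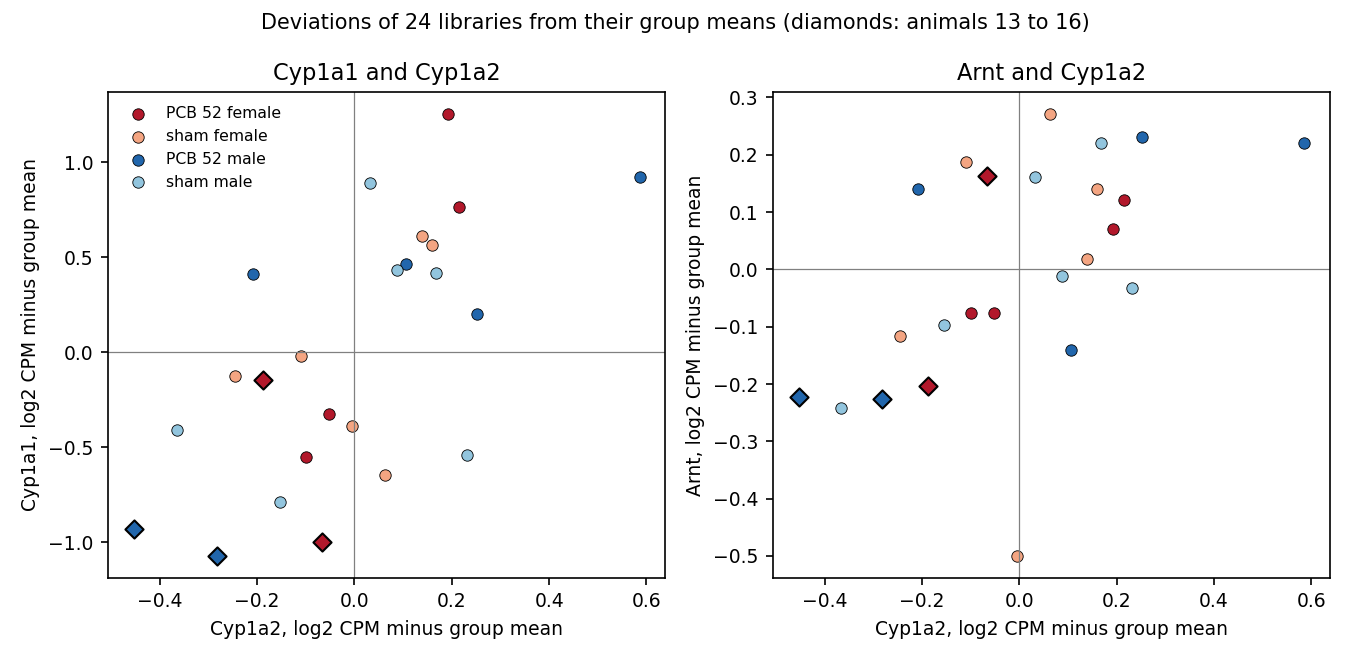
Deviation of each of the 24 libraries from its group mean, in log2 CPM, for Cyp1a1 against Cyp1a2 and for Arnt against Cyp1a2; diamonds are animals 13 to 16. Both clouds rise from lower left to upper right (r = 0.640 and 0.550), and the 2 males among the diamonds, animals 13 and 15, sit at the lower left of both.

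The genes whose pattern between animals was most like each member's were found by Spearman correlation of group-centred log2 CPM over the 24 libraries, among 10534 other genes. For Ahr they were Bcl2l11, a pro-apoptotic BCL2 relative (rho = 0.799), Ppargc1a, a coactivator that rises in fasted liver (0.779), and Dhtkd1, a mitochondrial dehydrogenase of lysine breakdown (0.770). In the 12 males alone rho reached 0.937 for Bcl2l11 and 0.909 for Ppargc1a, and in the 12 females it was 0.601 and 0.441. For Cyp1a2 they were Sardh, sarcosine dehydrogenase (0.827), Sox18, an endothelial transcription factor (0.820), and Entpd8, an ectonucleotidase (0.784). Cyp1a1 was most like Vwf, von Willebrand factor (0.758), Col18a1, a basement membrane collagen (0.757), and Coq9, of coenzyme Q synthesis (0.743). Arnt was most like Cep85 (0.805), Sipa1l2 (0.754) and Abhd15 (0.744), and Xdh most like Dennd5a (0.770), Apc, a brake on Wnt signalling (0.738), and Slc10a5 (0.738). The points share libraries, depth and the axis described above, and the genes were picked as the highest of many, so these values are descriptions.

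Other genes of the pathway were read from 4 lists, and none of their genes passed for exposure by edgeR. In the mean response 0, 3, 2 and 1 of them had an unadjusted p under 0.05, in the order of the lists below. Over all genes tested, 1625 of 10535 did. Among AhR's chaperones, coactivators and relatives, 9 of 13 listed genes could be tested. In the mean response 7 of the 9 lay above 0, with a median log2 fold change of 0.09, against 0.0069 over all genes tested. The 4 with the smallest p were Crebbp and Ncoa1, coactivators (0.13 ± 0.07 and 0.11 ± 0.07), Hif1a, which competes for ARNT (0.14 ± 0.08), and Bmal1, a clock factor of the same protein family (−0.59 ± 0.37). Ahrr, the AhR repressor and itself a target that AhR ligands induce, was close to 0, with a highest value of 0.236 CPM in PCB 52 females, 0.237 CPM in sham females, 0.128 CPM in PCB 52 males and 0.140 CPM in sham males. With animals 13 to 16 left out, 8 of the 9 lay above 0, with a median of 0.06, and the log2 fold changes were 0.11 for Crebbp, 0.08 for Ncoa1, 0.011 for Hif1a and −0.93 for Bmal1.

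Of 13 further genes described as AhR targets 11 could be tested, with 5 above 0 and a median of −0.05. Nqo1, a quinone reductase also driven by Nrf2, averaged 27.8 ± 7.46 CPM in PCB 52 females and 21.5 ± 2.01 CPM in sham females, and 8.72 ± 1.09 CPM in PCB 52 males and 7.30 ± 0.995 CPM in sham males. Its mean log2 fold change was 0.31 ± 0.10 (adjusted p = 0.168). Ugt1a6, a phenol glucuronosyltransferase, had 0.31 ± 0.10 (adjusted p = 0.173), with 13.8 ± 1.41 CPM in PCB 52 females and 9.83 ± 1.48 CPM in sham females, and 23.5 ± 6.21 CPM in PCB 52 males and 21.4 ± 2.30 CPM in sham males. Ugt1a7c, which shares exons with Ugt1a6 so that reads may be split between them, had 0.28 ± 0.16 (adjusted p = 0.414). With animals 13 to 16 left out, 12 of these genes could be tested, with 6 above 0 and a median of 0.023, and Nqo1 had 0.27, Ugt1a6 0.34, Ugt1a7c 0.34 and Hes1 −0.36.

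Hes1, a repressor downstream of Notch reported as an AhR-regulated gene in human cells, had a mean log2 fold change of −0.37 ± 0.13 (adjusted p = 0.188). PCB 52 females ran from 10.1 to 11.9 CPM and sham females from 13.98 to 18.2 CPM, without overlap, where 0.39% of 10251 genes had ranges that did not overlap. PCB 52 males ran from 12.8 to 22.8 CPM and sham males from 11.9 to 29.6 CPM, with full overlap.

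The enzymes that turn tryptophan into kynurenine and its products, a source of AhR ligands made by the body, had 8 of 10 members tested, 4 of them above 0 and a median of 0.0067. Aadat, an aminotransferase that makes kynurenic acid, averaged 253 ± 33.9 CPM in PCB 52 females and 216 ± 8.73 CPM in sham females, and 254 ± 29.9 CPM in PCB 52 males and 217 ± 27.0 CPM in sham males. Its mean log2 fold change was 0.23 ± 0.07 (adjusted p = 0.146 by edgeR and 0.049992 by DESeq2). Kmo, kynurenine monooxygenase, had 0.17 ± 0.07, Kyat1, another aminotransferase, −0.14 ± 0.07, and Haao −0.07 ± 0.07. Leaving out animals 13 to 16 put 5 of the 8 above 0, with a median of 0.07, and gave 0.15 for Aadat, 0.14 for Kmo, −0.09 for Kyat1 and 0.0056 for Haao. Ido1, which opens tryptophan in immune cells, had 0 counts in all 24 libraries.

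Of 7 genes of P450 electron supply and of heme synthesis and breakdown 3 lay above 0, with a median of −0.06. Por, the reductase that passes electrons to every microsomal P450, averaged 341.3 ± 84.7 CPM in PCB 52 females and 465.6 ± 81.5 CPM in sham females, and 434 ± 140 CPM in PCB 52 males and 468 ± 52.1 CPM in sham males (mean log2 fold change −0.28 ± 0.13). Alas1, the first enzyme of heme synthesis, had −0.26 ± 0.17, Cyb5r3 0.15 ± 0.07 and Cyb5a −0.06 ± 0.06. Without those 4 libraries 2 of the 7 lay above 0, with a median of −0.012, and the values were −0.10 for Por, −0.20 for Alas1, 0.20 for Cyb5r3 and −0.012 for Cyb5a.

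**Figure D4:**
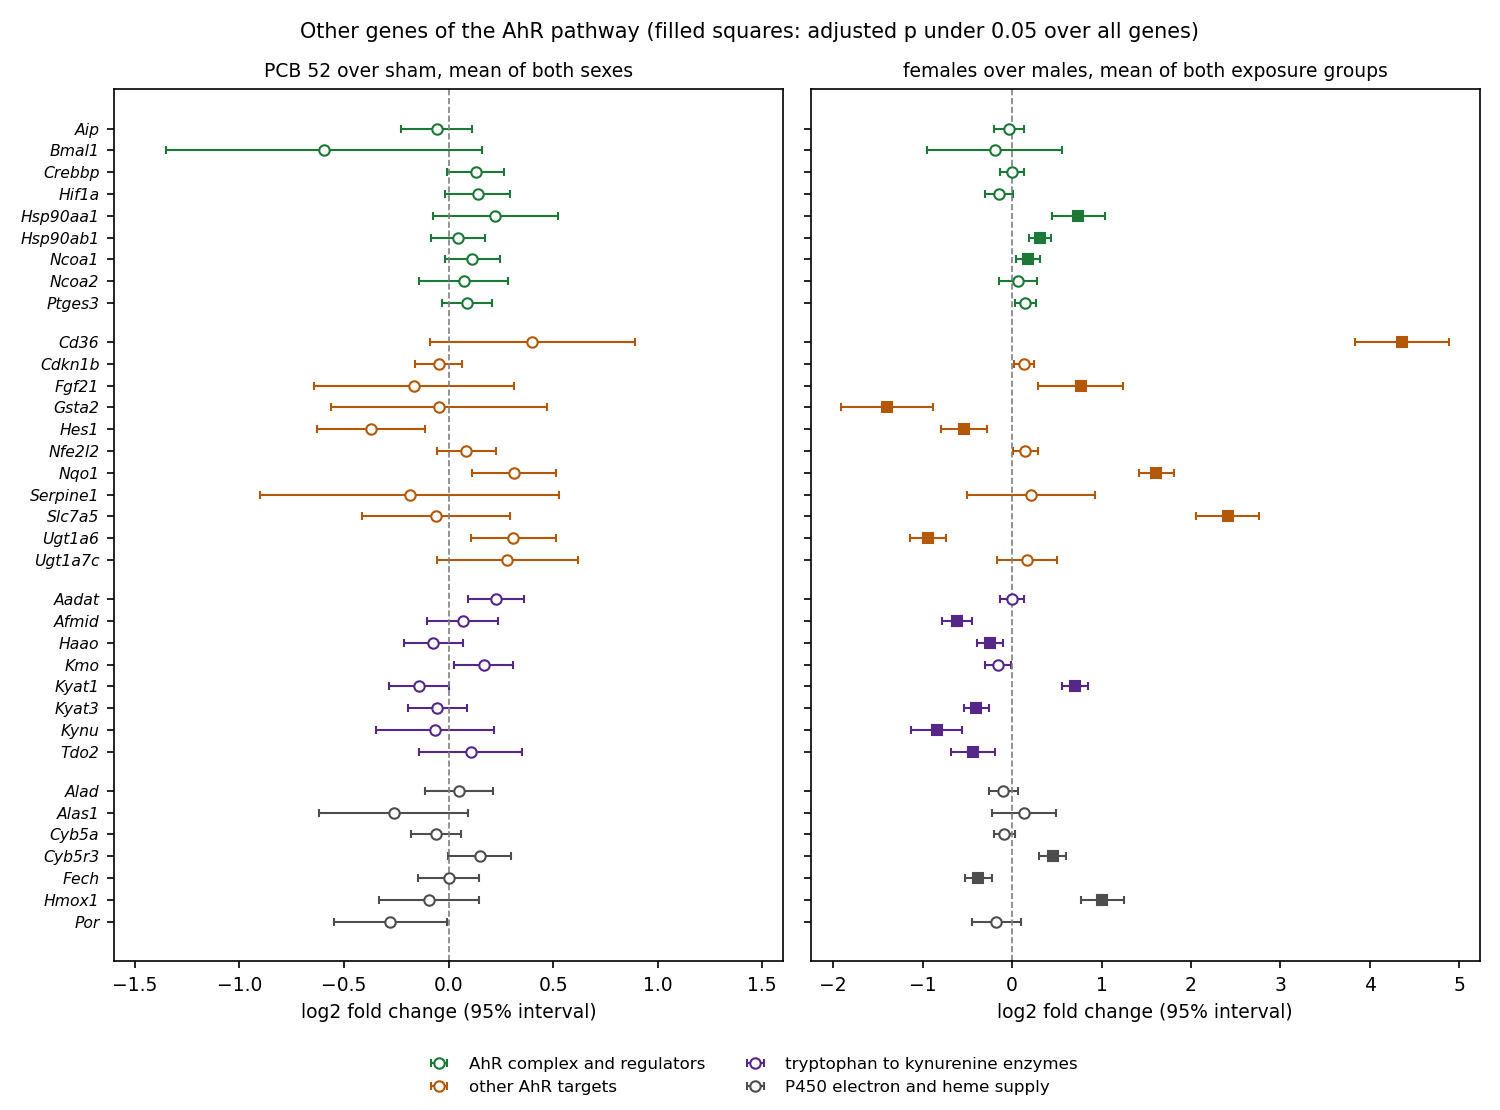
Log2 fold changes with 95% intervals for the genes of the 4 pathway lists that could be tested, for PCB 52 over sham as the mean of both sexes (left) and for females over males as the mean of both exposure groups (right); filled squares passed at an adjusted p under 0.05. No square is filled on the left, and on the right each of the 4 lists has filled squares.

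By sex, with both exposure groups averaged, each of the 4 lists held genes that passed, where 32.3% of all genes did, 16.4% as higher in females. The genes are named here after their values were seen, and whether a list held more passing genes than others of its size was not tested. Both HSP90 genes, the chaperones that hold AhR in the cytosol, were higher in females, Hsp90aa1 by 0.74 ± 0.14 (adjusted p = 2.58e-04) and Hsp90ab1 by 0.31 ± 0.06 (adjusted p = 2.15e-04) on the log2 scale, and 3 of 9 genes of that list were called higher and 0 lower. Of the 11 further targets 4 were called higher and 3 lower. Nqo1 was higher by 1.61 ± 0.10 (adjusted p = 4.03e-14), Cd36, a fatty acid transporter, by 4.36 ± 0.25 (adjusted p = 6.6e-12) and Slc7a5, an amino acid transporter that also carries kynurenine, by 2.41 ± 0.17 (adjusted p = 4.87e-12). Ugt1a6 was lower, at −0.94 ± 0.10 (adjusted p = 7.53e-09).

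Among the kynurenine enzymes 5 of 8 were called lower in females and 1, Kyat1, higher (0.70 ± 0.07, adjusted p = 2.45e-09). Tdo2, which takes tryptophan into this pathway in liver, averaged 884 ± 233 CPM in PCB 52 females and 1247 ± 245 CPM in PCB 52 males, and 853 ± 177 CPM in sham females and 1116 ± 257 CPM in sham males (−0.44 ± 0.12, adjusted p = 0.00517). Kynu, kynureninase, was also lower (−0.84 ± 0.14, adjusted p = 3.28e-05). Of the electron and heme genes 2 were called higher and 1 lower, and Hmox1, which breaks heme down, was higher by 1.01 ± 0.12 (adjusted p = 9.48e-08). The 10 genes named for sex kept their direction and passed with animals 13 to 16 left out (adjusted p = 1.2e-11 for Nqo1 to 0.0334 for Tdo2).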

How the data were processed

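Bulk liver RNA sequencing gave gene counts for 24 rats, deposited by the authors without normalization as 1 count table for each sex; both unit and layout were read from the tables and labels. The submitters' processing notes name FastQC, HISAT2 and the genome build rn6. The sources used here do not state how reads were counted, with which annotation or by strand, so overlapping and antisense genes could not be told apart, nor whether poly(A) capture or rRNA removal was used. Of 15319 gene IDs 15230 matched a symbol in a RefSeq table of GRCr8, and the 89 others stayed in totals and tests.

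Library totals were 6994832 to 9185511 counts, and limits from 0 counts (3 counts over a group) cover counting error only. Groups and animal numbers came from the labels. Replicate numbers follow accession order and pair no animals. The 24-library fit gave TMM factors from which normalised CPM were computed.

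Differential expression used edgeR 4.0.16 in R 4.3.3: TMM, filterByExpr (minimum count 10, minimum total 15), the robust quasi-likelihood test and Benjamini-Hochberg adjustment over all genes, with an adjusted p threshold of 0.05. Exposure was fitted within each sex; all other contrasts came from 1 fit of the 4 groups. Genes under the filter are given as counts: the exact permutation test planned for them could not give a small p with so few counts. Correlations used group-centred log2 CPM (prior count 2) and 100000 permutations within groups (scipy 1.17.1, Python 3.11.15). The fits and correlations were tested on simulated data. Alternatives were DESeq2 1.42.0, limma-voom (limma 3.58.1), median-of-ratios (RLE) factors, other filters, a threshold of 0.10, leaving out each library and leaving out animals 13 to 16. The averaged sex contrast, and the lists without animals 13 to 16, were added after the data were seen.

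The 8 genes, the lists and the tests were chosen with earlier results of these data known. The genes named were all 8, up to 4 of each list with the smallest p in the mean exposure response, the 3 most similar genes for each, and a few named after the fact, which is said beside them.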

Additional observations from a re-analysis of the deposited data

Results flagged for a closer look

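In 25 groups of 6 libraries each (the 7 measured genes in the 4 groups, less those with no counts), the highest or lowest library was set against the gap that 95% of groups of this size stay within. Chance flags about 1 in 20 groups, and 6 of the 25 passed. A group with counts in only 1 library passes by construction, so this number cannot be set against that rate.

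Ahr was 104.7 CPM in animal 21, a PCB 52 male, where the other 5 PCB 52 males had 52.4 to 70.4 CPM. Without this animal the log2 fold change of Ahr in males, PCB 52 over sham, was −0.25, against −0.08 with it.

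The other 5 rest on 1 or 2 counts in a single library of groups otherwise at 0, and such groups pass by construction. Cyp1b1 was 0.128 CPM in animal 16 (PCB 52 female), 0.1184 CPM in animal 8 (sham female) and 0.1319 CPM in animal 7 (sham male), 1 count each. Aldh3a1 was 0.1317 CPM in animal 17 (PCB 52 male, 1 count) and 0.2541 CPM in animal 1 (sham male, 2 counts).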

How the results depend on the processing

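For exposure, DESeq2 called 28 genes in females, 1 in males and 105 in the mean response where edgeR called 0; a single fit of 24 libraries called 1 in females, and a threshold of 0.10 called 22 in the mean response. None of the 5 testable AhR genes was among these, and the cause was not tested. With 1 library left out, calls ran from 0 to 8 in females and from 0 to 15 in the mean response, both highest without animal 20, and were 0 to 0 in males and for the difference between the sexes. Sex calls ran from 1875 to 2187 among PCB 52 animals, from 1928 to 2189 among sham animals and from 3247 to 3437 with both averaged.

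Without animals 13 to 16 the log2 fold change for exposure turned for Cyp1a1 (0.12 in females, 0.066 in males, 0.094 in the mean response), for Cyp1a2 (0.12 in males, 0.0092 in the mean) and for Haao (0.0056). Among sham animals Cyp1a2 passed between the sexes with DESeq2, with limma-voom and without animals 13 to 16, and Arnt with limma-voom, where neither passed by edgeR on all libraries. Limma-voom turned the female minus male response of Cyp1a1 (−0.15) and Xdh (−0.0018). With 1 library left out, that difference ran from −0.23 to 0.12 for Ahr, −0.14 to 0.0054 for Arnt, −0.22 to 0.38 for Cyp1a1, −0.19 to 0.026 for Cyp1a2 and −0.056 to 0.062 for Xdh, all far from the threshold. In the same way Ahr in males ran from −0.25 to 0.096, Cyp1a2 in males from −0.19 to 0.030, Cyp1a1 in females from −0.53 to 0.012 and Cyp1a1 between the sexes of PCB 52 animals from −0.035 to 0.57.

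Of 10 gene pairs, 2 passed as correlated with the settings used, 1 with RLE factors, 0 without animals 13 to 16, 0 in females alone and 0 in males alone, the last 3 with fewer libraries. Signs turned for Ahr with Arnt (0.116) and Ahr with Xdh (0.191) in females and for Cyp1a1 with Xdh (−0.0486) in males, none of them passing. No paired analysis was possible because the labels give no pairing between animals. Low counts limit Cyp1a1, Cyp1b1 and Aldh3a1.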
